A study of Homo sapiens with 16 samples.

Results

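The comparison described here is the effect of estradiol (E2) on gene expression in HMC3 cells that also received (2S,6S)-hydroxynorketamine, written (2S,6S)-HNK. It sets the 2 libraries of cells given E2 together with (2S,6S)-HNK against the 2 libraries given (2S,6S)-HNK alone, which is 4 of the 16 RNA-seq libraries of the series. HMC3 is an established human microglial line, and all cells were kept in charcoal-stripped serum, then without serum, before 24 h of treatment in medium free of serum and phenol red. Both groups received 400 nM (2S,6S)-HNK, and they differed in 0.1 nM E2. The other libraries, 2 per group, were vehicle, E2, ketamine, (2R,6R)-HNK, E2+ketamine and E2+(2R,6R)-HNK at the same concentrations. They enter here through the shared estimate of spread and through the E2 effect in vehicle, with (2R,6R)-HNK and with ketamine. The sources do not state whether the 2 libraries of a group came from separate cultures, so the p-values measure the spread between libraries, which may be technical.

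E2 acts through the nuclear receptors ERα (ESR1) and ERβ (ESR2), which bind estrogen response elements in DNA, and through the membrane receptor GPER1. Hydroxynorketamines are metabolites of ketamine, and (2R,6R)-HNK and (2S,6S)-HNK are mirror-image forms of one molecule. Microglia are the resident immune cells of the brain, and one of their responses is the type I interferon program, in which interferon activates JAK kinases and STAT factors that drive antiviral genes through interferon-stimulated response elements.

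The 4 libraries held 76709236 and 60036748 counts with E2 and 55300614 and 60533798 counts without. Even values made up 65.8% of the counts from 1 to 9 and 49.9% of those that reached 500. The distance between libraries over all genes tested was 43.6 between the 2 libraries of E2+(2S,6S)-HNK and 50.9 between the 2 of (2S,6S)-HNK. Each library of (2S,6S)-HNK lay nearer to a library of E2+(2R,6R)-HNK, at 49.6 and 47.6, than to its own replicate or to any library of E2+(2S,6S)-HNK, at 55.1 or more. What places these groups close together was not tested. The label of the cells was compared with marker genes. Of 18 microglial and myeloid markers, 3 reached 1 CPM (counts per 1000000 counts of the library) in any of the 4 libraries, among them the lysosomal gene CD68 and the receptor gene CD14. PTPRC, C1QA and SALL1 had 0 counts in all 4 libraries, and AIF1, CX3CR1, P2RY12 and TMEM119 had at most 6 counts in any of them. The 13 fibroblast and pericyte markers summed to between 6200 and 6710 CPM. Most of this sum was COL1A1, at 3844 to 4299 CPM, and VIM, at 1479 to 1537 CPM. COL3A1, DCN, LUM and FAP of the same list had at most 10 counts in any of the 4 libraries. The defining microglial markers were therefore close to absent in these libraries, and the cells are called HMC3 cells below. Neither CD68 nor CD14 passed the test, and 6 of the 10 fibroblast and pericyte markers tested fell. Beside this, 27.2% of all genes tested fell at the same limit, an adjusted p under 0.05. In bulk RNA, fewer cells of a type and less RNA per cell cannot be told apart, and the part of these markers in the results was not tested.

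Of the receptors through which E2 can act, ESR1 had 0 counts in each of the 4 libraries, which allows a level of up to 0.0391 to 0.0543 CPM per library (3 counts, counting error only). ESR2 was read at 0.564 and 0.295 CPM with E2 and 0.657 and 0.543 CPM without, and the groups overlapped. GPER1 was read at 0.699 and 0.560 CPM with E2 and 1.17 and 0.763 CPM without. The log2 fold changes of ESR2 and GPER1, -0.45 ± 0.42 [-0.49] and -0.60 ± 0.28 [-0.38] (SE), did not pass the test (adjusted p = 0.401 and 0.0707). With each library left out in turn they ran from -1.01 to -0.08 for ESR2 and from -0.88 to -0.26 for GPER1. Values in square brackets are those after a correction for the GC content and length of the exons. Without (2S,6S)-HNK replicate 2, GPER1 was at -0.88 and passed (adjusted p = 0.0242).

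Of 16004 genes tested with edgeR's quasi-likelihood test and Benjamini-Hochberg adjustment, 3853 (24.1%) rose and 4357 (27.2%) fell with E2 at an adjusted p under 0.05. These changes were small. Of the 7594 such genes with a mean of at least 5 CPM over the 4 libraries, 7460 changed by less than 0.5 on the log2 scale, 106 rose by at least 0.5 and 28 fell by at least 0.5. With the further limit of a log2 fold change of at least 1, 67 genes (0.419%) rose and 45 (0.281%) fell. Of these 112 genes, 107 had a mean under 1 CPM, and the median was 0.200 CPM, or 13.0 counts per library. The 5 above 1 CPM, named after their values were seen, were the interferon-induced genes IFITM1 and MX1, which fell, and LINC01355, the antisense transcript RBM5-AS1 and POPDC3, which rose. LINC01355, a long noncoding RNA, was read at 2.53 and 2.69 CPM with E2 and 0.912 and 1.24 CPM without, with a log2 fold change of 1.27 ± 0.27 (SE, adjusted p = 7.54e-05) [0.998]. POPDC3, of the Popeye family of membrane proteins, rose from 0.675 and 0.848 CPM to 1.71 and 1.77 CPM. RBM5-AS1 overlaps RBM5 on the other strand, and whether the counting used strand is not given in the sources used here, so reads of the pair cannot be told apart. With 2 libraries against 2 no permutation test can go below a two-sided p of 0.333, and all adjusted p-values rest on the spread pooled over the 8 groups, with a common coefficient of variation of 2.81%.

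**Figure D1:**
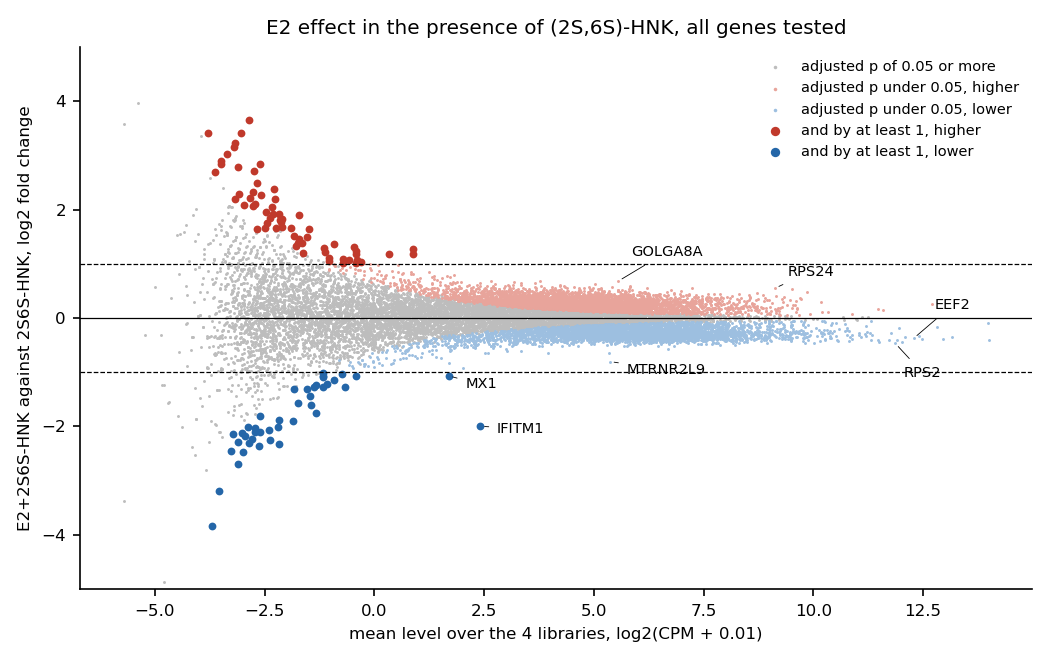
Log2 fold change of E2+2S6S-HNK against 2S6S-HNK (vertical axis) against the mean level over the 4 libraries as log2(CPM + 0.01) (horizontal axis) for the 16004 genes tested, coloured by the test. The 112 genes past the dashed lines at 1 and -1 lie almost all at the left, under 1 CPM, and IFITM1 and MX1 stand apart below the band of well-read genes.

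The direction of change followed the GC content of the exons. Across the 15358 genes with a GC content, the Spearman correlation of the log2 fold change with GC content was -0.607. The median log2 fold change was 0.27 in genes of 35% to 40% GC, 0.03 at 45% to 50% and -0.28 at 60% to 65%. The genes that rose had a median GC content of 41.3%, those that fell one of 56.8%, and all genes tested one of 48.7%. After a correction for GC content and exon length within each library, 1696 genes (10.6%) rose and 3163 (19.8%) fell, and the correlation was -0.0960. Of the 8210 genes that changed before the correction, 3808 changed in the same direction after it and 147 in the opposite direction. With the fold limit 73 genes were called after the correction, of which 69 were among the 112. Such a correction takes out both a response of the cells and a bias of sequencing where either tracks GC content, and these cannot be told apart. The value after it is therefore given beside the value before it, in words or, with its sign, in square brackets, while p-values are those before it unless stated. Genes without a GC content, among them the MTRNR2L genes named below, received the median offset of each library.

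**Figure D2:**
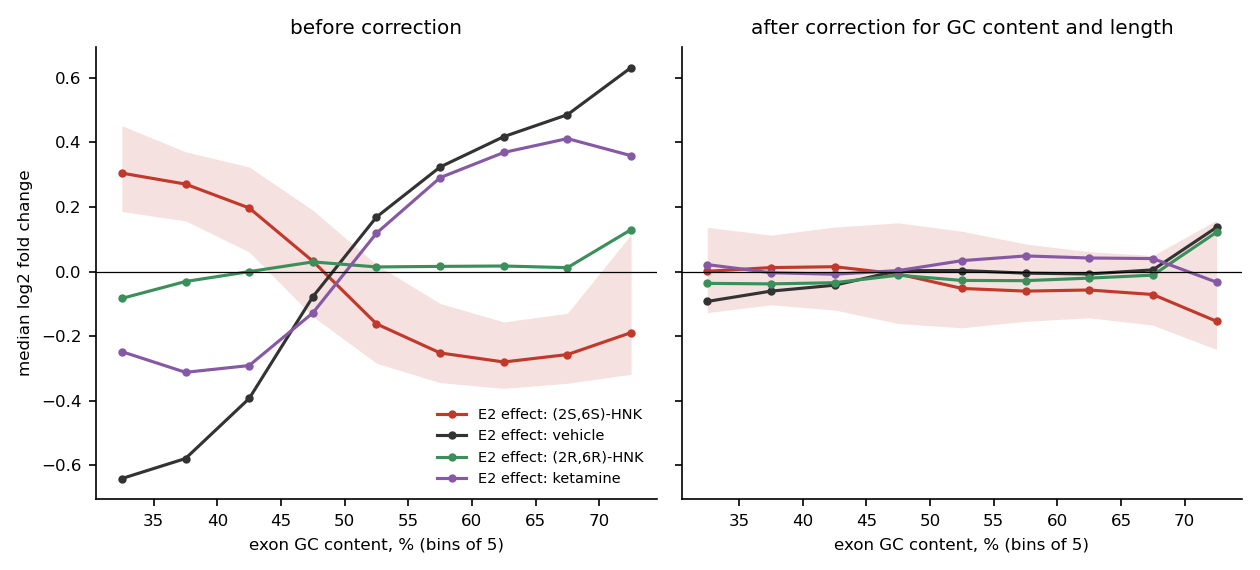
Median log2 fold change of E2 (vertical axis) in bins of exon GC content (horizontal axis, %) in 4 contexts, before (left) and after (right) the correction for GC content and length; the shaded band is the interquartile range for (2S,6S)-HNK. With (2S,6S)-HNK the line falls from 0.30 at the lowest GC content to -0.28 at 60% to 65%, opposite to vehicle and ketamine, and after the correction it lies between -0.07 and 0.02 below 70% GC.

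Genes of the type I interferon response fell more often than they rose, and this held after the correction. Of 50 listed genes tested, 5 rose, 19 fell and 26 did not pass the test, and the list's median log2 fold change was -0.11, against 0.01 for all genes. After the correction 1 rose and 21 fell, with a median of -0.16 against -0.02 for all genes. Of all genes tested, 27.2% fell before and 19.8% after it, against 42.0% of the list after it. Of the 19 that fell, 18 also fell after the correction, and of the 5 that rose, 1 did. The list was written with earlier results of these libraries known, so its direction is not independent evidence.

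IFITM1 encodes an interferon-induced membrane protein that blocks virus entry and lies at chr11:310041-315272 (hg19). It was read at 2.11 and 2.18 CPM with E2 and 3.96 and 13.1 CPM without, and the groups did not overlap. The 2 libraries without E2 lay far apart, with counts of 217 and 770, and the 2 with E2 close together, with 172 and 140. The log2 fold change was -2.00 ± 0.24 (SE, adjusted p = 1.28e-09), and -1.81 after the correction. It was -0.89 (adjusted p = 0.00054) without the higher library, (2S,6S)-HNK replicate 2, and -2.61 without replicate 1. IFITM1 shares sequence with IFITM2 and IFITM3 and overlaps another annotated gene on the same strand, so its reads may be split. MX1, an antiviral GTPase gene at chr21:42791947-42841998 (hg19), was read at 2.02 and 2.15 CPM with E2 and 4.01 and 4.70 CPM without, a fall of 1.07 ± 0.17 on the log2 scale (SE, adjusted p = 4.3e-07), and a log2 fold change of -1.01 after the correction. Both E2 libraries lay below both libraries without E2, and the replicates of each group lay close together. MX1 overlaps TMPRSS2 on the other strand.

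Among the oligoadenylate synthetases, which activate RNA degradation, OAS3 was read at 11.6 and 11.6 CPM with E2 and 15.5 and 15.8 CPM without and fell by 0.43 [-0.40]. OAS1, at under 1.2 CPM in all 4 libraries, had a log2 fold change of -0.77 ± 0.28 (SE, adjusted p = 0.0197) [-0.94]. ISG15, the ubiquitin-like modifier, fell by 0.45 [-0.28] from 48.9 and 48.4 CPM to 37.05 and 34.1 CPM, and USP18, the protease that removes it, fell by 0.50 [-0.58]. IFITM3 was read at 120.2 and 119 CPM with E2 and 158 and 162 CPM without, a fall of 0.42, and a log2 fold change of -0.23 after the correction. IFIT1, an RNA-binding effector, fell by 0.42 [-0.62] and its relative IFIT3 did not pass the test, with a log2 fold change of 0.07 [-0.09] (adjusted p = 0.786). Antigen-processing genes PSMB8, PSMB9 and TAP1 had log2 fold changes of -0.38 [-0.31], -0.28 [-0.33] and -0.33 [-0.19], all past the test in both fits. These genes other than IFITM1 and MX1 were picked from the list after their values were seen.

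IFIT5, a further RNA-binding member of the family, went the other way, at 11.4 and 11.2 CPM with E2 and 7.79 and 8.16 CPM without. Its log2 fold change was 0.51 ± 0.083 (SE, adjusted p = 9.65e-07) and 0.25 after the correction (adjusted p = 0.0185). DDX60, a helicase of antiviral signalling, was read at 1.94 and 2.10 CPM with E2 and 1.204 and 1.51 CPM without, and its log2 fold change of 0.57 (adjusted p = 0.0253) was 0.34 after the correction (adjusted p = 0.27), no longer past the test. Nor did it pass without (2S,6S)-HNK replicate 1 (0.42) or E2+(2S,6S)-HNK replicate 2 (0.51), or with DESeq2. IFIT5 and DDX60 have exons of 38.8% and 38.7% GC, against 58.1% for IFITM1 and 49.3% for MX1.

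IFITM1 averaged 1.22 ± 0.223 CPM (SD, n = 2) in vehicle, 8.51 ± 6.44 CPM with (2S,6S)-HNK and 2.14 ± 0.0473 CPM with both agents. MX1 averaged 1.63 ± 0.311 CPM, 4.36 ± 0.484 CPM and 2.09 ± 0.0861 CPM in these 3 groups. The levels with both agents thus lay between those of vehicle and of (2S,6S)-HNK alone, and MX1 in the 2 vehicle libraries was at 1.41 and 1.85 CPM.

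**Figure D3:**
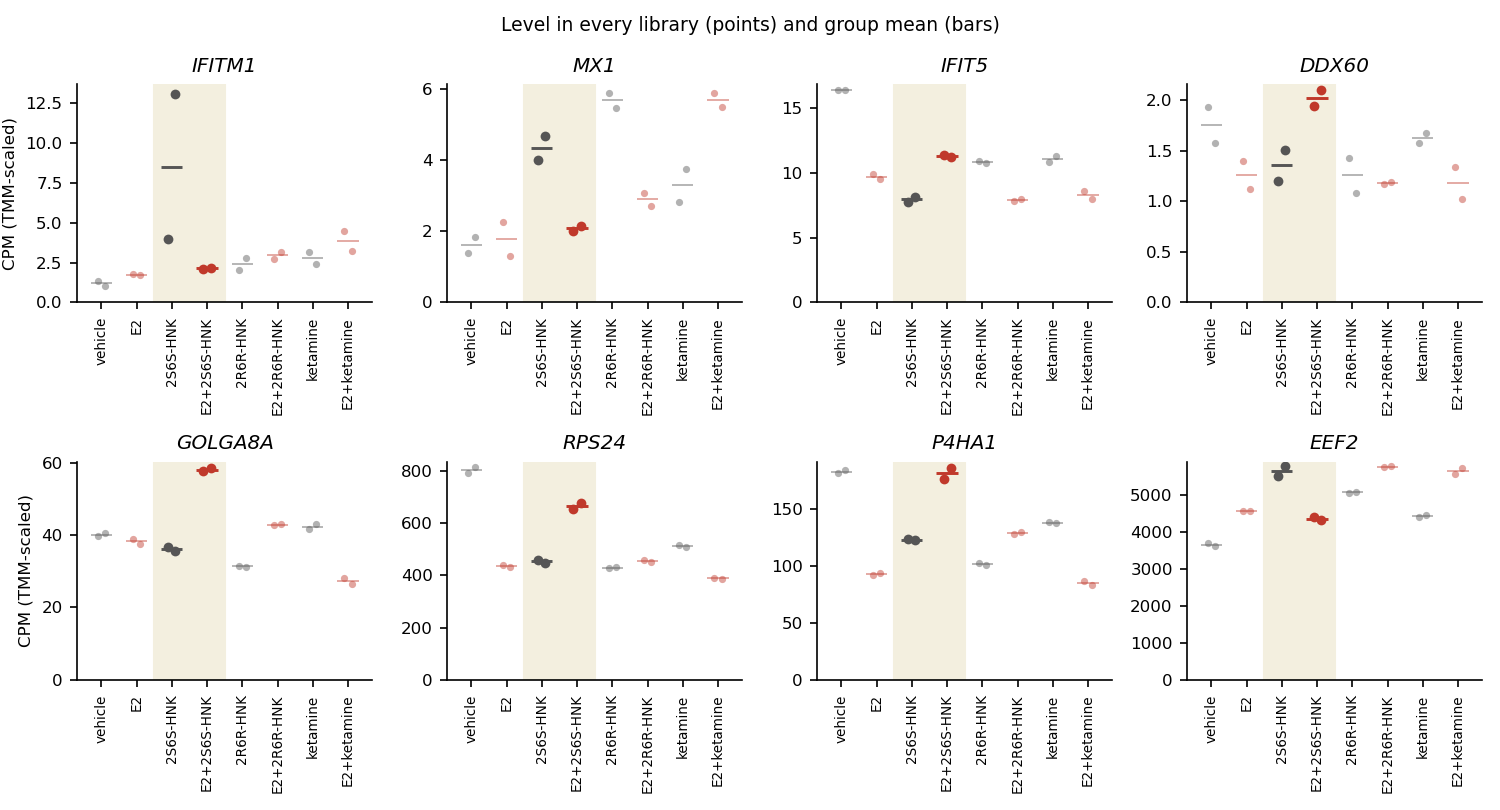
Level (CPM, TMM-scaled, axis from 0) of 8 genes in every library (points) and the group mean (bars) for the 8 groups, with E2 groups in red and the 2 groups compared here on a shaded ground. IFITM1 reached 13.1 CPM in a single (2S,6S)-HNK library, whereas MX1 fell and IFIT5, GOLGA8A, RPS24 and P4HA1 rose between groups whose replicates lie close together.

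The promoters of IFITM1, MX1 and IFIT5 are shown because they carry the interferon-stimulated response element core while IFIT5 moved opposite to the other 2. The sequences are RefSeq's, GRCh38.p14, plus strand, from 250 bases before to 50 after the start, and capitals mark the core GAAANNGAAA on either strand. The windows are chr11:313790-314089, chr21:41420308-41420607 and chr10:89414318-89414617, all 3 genes being on the plus strand.
IFITM1: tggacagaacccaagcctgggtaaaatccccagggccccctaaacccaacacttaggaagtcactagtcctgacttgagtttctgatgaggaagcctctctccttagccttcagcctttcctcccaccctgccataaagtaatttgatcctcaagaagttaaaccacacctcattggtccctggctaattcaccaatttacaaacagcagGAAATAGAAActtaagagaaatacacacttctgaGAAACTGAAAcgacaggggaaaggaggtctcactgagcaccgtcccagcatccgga
MX1: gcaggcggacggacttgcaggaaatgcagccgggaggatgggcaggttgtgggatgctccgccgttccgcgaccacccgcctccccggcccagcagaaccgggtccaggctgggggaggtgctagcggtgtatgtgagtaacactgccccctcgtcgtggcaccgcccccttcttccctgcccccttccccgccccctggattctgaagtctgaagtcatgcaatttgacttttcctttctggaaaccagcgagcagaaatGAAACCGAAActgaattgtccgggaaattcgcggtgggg
IFIT5: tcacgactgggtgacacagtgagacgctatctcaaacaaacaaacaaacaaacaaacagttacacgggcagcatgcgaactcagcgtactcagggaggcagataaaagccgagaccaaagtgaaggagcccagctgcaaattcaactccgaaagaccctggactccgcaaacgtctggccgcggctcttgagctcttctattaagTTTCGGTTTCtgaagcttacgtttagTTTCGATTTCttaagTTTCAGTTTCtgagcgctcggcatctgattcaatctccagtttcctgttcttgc
IFITM1 holds 2 such cores, MX1 1 and IFIT5 3. Over all genes tested that matched a RefSeq promoter by symbol (12003), 2.82% held the core in these 300 bases, against 2.88% of those that rose and 2.31% of those that fell at an adjusted p under 0.05. Other motifs were counted in the same windows. The palindromic estrogen response element GGTCANNNTGACC was in 1 promoter of all tested and in none of the genes that changed. A single arm of it, AGGTCA, which has 1 further base at its 5′ end, was in 8.57% of the promoters of genes that rose, 9.39% of those that fell and 10.0% of all tested. The gamma-activated site of STAT factors, TTCNNNGAA, was in 7.01%, 5.64% and 6.26%, and the cyclic AMP response element TGACGTCA in 3.52%, 3.30% and 3.07%. Of the 112 genes past the fold limit, 63 had a promoter in the table. The gamma-activated site was in 7 of 34 that rose and 3 of 29 that fell, the interferon-stimulated core in 3 and 2, and the single estrogen arm in 0 and 3. The full estrogen element and the cyclic AMP element were in 0 of these 63. A motif in a window is a description and shows no binding.

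Signalling genes upstream of the interferon program moved in both directions. Of 41 JAK-STAT and interferon regulatory factor genes tested, 13 rose, 16 fell and 12 did not pass the test, with a median log2 fold change of 0.05 that turned to -0.01 after the correction, when 8 rose and 12 fell. The shares that rose and fell were 31.7% and 39.0%, against 24.1% and 27.2% of all genes tested. After the correction they were 19.5% and 29.3%, against 10.6% and 19.8%. The receptor subunit gene LIFR, which binds leukemia inhibitory factor, was read at 23.4 and 21.9 CPM with E2 and 14.7 and 15.1 CPM without, a rise of 0.60 ± 0.067 (SE, adjusted p = 9.48e-11) [0.36]. JAK2, a kinase of cytokine receptors, rose by 0.56 [0.30]. IRF1, a transcription factor of interferon-stimulated genes, was read at 10.0 and 9.58 CPM with E2 and 12.8 and 14.1 CPM without and fell by 0.45 [-0.35]. STAT2 and IRF9, subunits of the interferon-stimulated transcription complex, had log2 fold changes of -0.27 [-0.19] and -0.42 [-0.30], and both fell after the correction too. STAT3, the STAT factor on which the study centred, was read at 162 and 161 CPM with E2 and 189 and 191 CPM without, a fall of 0.23 ± 0.029 (SE, adjusted p = 1.16e-09), and the log2 fold change was -0.21 after the correction. IRF5, at about 1 to 1.5 CPM, had a log2 fold change of -0.60 [-0.43] (adjusted p = 0.027) that did not pass after the correction (adjusted p = 0.171). It did not pass when any of the 4 libraries was left out (-0.68 to -0.53), or when only the groups compared were fitted. Of 34 inflammatory cytokine and chemokine genes, 1 rose, 8 fell and 25 did not pass the test, and after the correction 0 rose and 3 fell. The share that fell, 23.5% before and 8.82% after it, was below that of all genes tested, 27.2% and 19.8%. The share that rose before it, 2.94%, was further below the 24.1% of all genes, and 26.5% of the list passed against 51.3%. The list's median log2 fold change was -0.17 [-0.05], against 0.01 [-0.02] for all genes. NFKBIA, the inhibitor of NF-κB, fell by 0.45 [-0.32] from 17.3 and 17.2 CPM to 12.3 and 13.0 CPM. TGFB1, an anti-inflammatory cytokine, fell by 0.43 [-0.21]. CSF1 and CXCL16 fell by 0.44 [-0.24] and 0.38 [-0.20] and did not pass after the correction (adjusted p = 0.0883 and 0.0504).

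The largest rises among genes of at least 5 CPM were in GOLGA8A, AP1AR, AHSA2, ZBTB8OS, TMEM161B, ZNF566, GOLGA8B, ZNF788, PAPD5, FAM72B, STK38L and SDCCAG8, with log2 fold changes from 0.60 to 0.68, and from 0.33 to 0.71 after the correction. None of these reached the fold limit of 1. GOLGA8A, at chr15:34671136-34730009 (hg19), belongs to the golgin family of Golgi proteins, and was read at 57.6 and 58.7 CPM with E2 and 36.8 and 35.7 CPM without. Its log2 fold change was 0.68 ± 0.046 (SE, adjusted p = 1.84e-17) and 0.71 after the correction. GOLGA8B, read at 39.7 and 40.1 CPM with E2 and 25.9 and 25.6 CPM without, is a near-identical copy, and the 2 genes may share reads, as may FAM72B with its copies. AP1AR, which encodes an adaptor-complex regulator, was read at 7.29 and 8.26 CPM with E2 and 4.87 and 4.80 CPM without, a rise of 0.68 that was 0.42 after the correction. PAPD5, a noncanonical poly(A) polymerase, rose by 0.61 and 0.39, and the kinase gene STK38L by 0.61 and 0.33, before and after it. All 12 passed the test in both fits. AP1AR, AHSA2, ZBTB8OS, TMEM161B, ZNF566, FAM72B and SDCCAG8 overlap a gene on the other strand and ZNF788 one on its own strand.

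IFITM1 met the limit of a mean of 5 CPM only through (2S,6S)-HNK replicate 2, at 13.1 CPM. Its other libraries were at 3.96 CPM or less, so its place at the head of the falls rests on that library. The largest falls after IFITM1 included MTRNR2L9, FBXO6, MTRNR2L8, ABHD14A, VAMP5, SP6, IFNLR1, MTRNR2L2, ENHO and KRT80, from -0.80 to -0.52, and from -0.80 to -0.33 after the correction. MTRNR2L9 was read at 29.2 and 31.0 CPM with E2 and 57.4 and 47.6 CPM without and MTRNR2L2 at 82.2 and 83.2 CPM with E2 and 133 and 113 CPM without. The MTRNR2L genes are nuclear copies of the mitochondrial 16S ribosomal RNA gene, so their reads may come from mitochondrial RNA, which cannot be told apart here. VAMP5, of the vesicle-fusion proteins, was read at 12.4 and 11.8 CPM with E2 and 19.2 and 18.6 CPM without, a fall of 0.64 ± 0.072 (SE, adjusted p = 1.72e-10) [-0.49]. IFNLR1, the ligand-binding chain of the type III interferon receptor, was read at 8.24 and 7.68 CPM with E2 and 11.8 and 12.5 CPM without and fell by 0.61, with a log2 fold change of -0.45 after the correction. FBXO6, an F-box protein that recognises glycoproteins, fell by 0.64 [-0.45] and overlaps MAD2L2 on the other strand. KRT80, a keratin, fell by 0.52 [-0.33] from 99.8 and 108 CPM to 71.4 and 73.0 CPM. ENHO, which encodes the peptide adropin, fell by 0.56 [-0.40]. These falls passed the test in both fits.

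When genes of at least 5 CPM were ranked by the value after the correction, and named after these values were seen, IGFN1 led the rises at 0.73, against 0.53 before it, from 5.35 and 5.56 CPM to 8.23 and 7.51 CPM. Lower-level genes such as LINC01355 and HSPA1L had higher corrected values. GOLGA8A, DNHD1, GOLGA8B and HERC2P2 followed at 0.71, 0.65, 0.60 and 0.56, against 0.68, 0.48, 0.63 and 0.49 before it. AGAP4 and AGAP9, a pair of near-identical genes, had log2 fold changes of 0.51 and 0.51, and of 0.54 and 0.55 after it. Among the falls, ATP5G3, a subunit gene of the mitochondrial ATP synthase, was read at 146 and 145 CPM with E2 and 183 and 182 CPM without, and its log2 fold change of -0.33 became -0.58. RPSAP58, a ribosomal protein pseudogene, fell by 0.35 before and by 0.57 after the correction. TTC5 had a value of -0.37 before it and of -0.59 after it. FANCF, which belongs to the Fanconi anemia DNA repair complex, had values of -0.43 and -0.60.

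Beside the counts of the lists that follow, 24.1% of all genes tested rose and 27.2% fell, and 10.6% and 19.8% after the correction. These shares depend on level. Before the correction 7594 of the 10363 genes with a mean of at least 5 CPM passed the test, against 8210 of all 16004. Lists of well-read genes were not compared with genes of like level. Genes of the nuclear receptor pathway moved in both directions. Of 28 estrogen receptors and coregulators tested, 12 rose, 9 fell and 7 did not pass the test, and the median of 0.07 turned to -0.03 after the correction, when 6 rose and 5 fell. NRIP1, a corepressor and itself a classical estrogen target, was read at 56.8 and 60.03 CPM with E2 and 44.1 and 43.6 CPM without, a rise of 0.41 ± 0.043 (SE, adjusted p = 1.46e-11) [0.17]. PHB2, a repressor of estrogen receptor activity, fell by 0.40 [-0.25] from 362 and 368 CPM to 277 and 277 CPM. BCAS3 fell by 0.33 [-0.20], and ESRRA, an orphan receptor, by 0.32 [-0.10], the latter not past the test after the correction (adjusted p = 0.105). Of 48 estrogen target genes known from breast cells, 8 rose, 15 fell and 25 did not pass the test, with a median of -0.08, and after the correction 4 rose and 13 fell. The share that fell, 31.2%, was near the 27.2% of all genes tested. SLC39A6, a zinc importer, rose by 0.40 [0.19], IGFBP4, which binds insulin-like growth factors, fell by 0.36 [-0.15], and XBP1, a stress transcription factor, had log2 fold changes of -0.25 before and -0.34 after the correction.

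The list with the highest median was that of heat shock proteins and chaperones. Of 49 tested, 28 rose, 14 fell and 7 did not pass the test, a median of 0.17, and after the correction 20 rose and 7 fell, a median of 0.07. HSPA1L was read at 3.32 and 3.31 CPM with E2 and 2.19 and 1.92 CPM without, a log2 fold change of 0.69 ± 0.17 (SE, adjusted p = 0.000485) that was 0.76 after the correction. CCT6A and CCT8, subunits of the TRiC chaperonin, rose by 0.45 [0.22] and 0.44 [0.23], and CCT3, a further subunit, fell by 0.16 [-0.23]. DNAJB9 and HSPA13, chaperones of the endoplasmic reticulum, rose by 0.55 [0.27] and 0.48 [0.18], and DNAJB9 was read at 9.79 and 10.6 CPM with E2 and 6.68 and 7.16 CPM without. CRYAB and HSPB1, small heat shock proteins, had log2 fold changes of -0.40 [-0.37] and -0.31 [-0.12], and both fell in both fits. The exons of DNAJB9 and HSPA13 have 37.3% and 35.9% GC and those of HSPA1L 50.8%.

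Of 50 targets of ATF4, the transcription factor of the integrated stress response, 11 rose, 25 fell and 14 did not pass the test, and after the correction 12 rose and 19 fell. Transfer RNA synthetase genes TARS and NARS rose by 0.43 [0.28] and 0.41 [0.21], whereas SHMT2 of serine and glycine metabolism fell by 0.41 [-0.22] from 525 and 549 CPM to 414 and 396 CPM. NUPR1 had a log2 fold change of -0.54 [-0.48] (adjusted p = 0.0191) and did not pass after the correction (adjusted p = 0.0615). It was -0.27 without (2S,6S)-HNK replicate 2 and -0.51 without E2+(2S,6S)-HNK replicate 1, and passed in neither fit. Cholesterol synthesis genes were split as well, with 12 of 40 up and 22 down, and 8 up and 18 down after the correction. HMGCS1, which catalyses an early step, rose by 0.45, being read at 217 and 230.0 CPM with E2 and 166 and 162 CPM without. CYP51A1, a later enzyme, rose by 0.37, and SCAP, the escort of the SREBP factors, fell by 0.37. After the correction the 3 values were 0.22, 0.14 and -0.15.

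Energy metabolism leaned down. Of 47 glycolysis genes and hypoxia targets, 13 rose, 24 fell and 10 did not pass the test, and after the correction 9 rose and 21 fell. ALDOA, a glycolytic aldolase, was read at 2496 and 2394 CPM with E2 and 3208 and 3429.5 CPM without, a fall of 0.44 ± 0.020 (SE, adjusted p = 2.51e-23), and a log2 fold change of -0.25 after it. PGK1, PKM, TPI1 and GAPDH fell by 0.32 [-0.49], 0.40 [-0.25], 0.41 [-0.22] and 0.36 [-0.15]. P4HA1, a collagen prolyl hydroxylase induced by hypoxia, was read at 176 and 186 CPM with E2 and 123 and 122 CPM without, and rose by 0.56 and 0.32 in the 2 fits. ANKRD37, a hypoxia target at 1.8 to 3.1 CPM, fell by 0.61 [-0.69], and CA9 by 0.45 [-0.26], the latter not past the test after the correction (adjusted p = 0.134). Without E2+(2S,6S)-HNK replicate 1, CA9 was at -0.26 and did not pass. Of 76 nuclear-encoded respiratory chain subunits, 22 rose, 39 fell and 15 did not pass the test. After the correction 9 rose and 43 fell, a share of 56.6% down against 19.8% of all genes, and a median of -0.11. CYC1 of complex III fell by 0.46 [-0.25], and NDUFS4 of complex I, COX6C of complex IV and UQCRB of complex III rose by 0.56 [0.32], 0.52 [0.38] and 0.52 [0.28]. The 3 that rose have 42.6%, 44.4% and 38.7% GC, and all 4 passed in both fits.

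Cytosolic ribosomal proteins moved both ways, with more of them down. Of 78 tested, 24 rose, 46 fell and 8 did not pass the test, and after the correction 24 rose and 45 fell. RPS2 was read at 3156 and 3117 CPM with E2 and 4381 and 4302 CPM without, a fall of 0.47 ± 0.018 (SE, adjusted p = 1.48e-25) [-0.27]. RPS24 was read at 656 and 676 CPM with E2 and 459 and 449 CPM without, a rise of 0.55 ± 0.023 (SE, adjusted p = 1.01e-24), and of 0.47 after the correction. RPL7 rose by 0.49 and 0.36, and RPS10, which overlaps a readthrough gene on its own strand, fell by 0.49 [-0.47]. Both directions thus occurred among subunits of 1 complex. Ribosomal protein genes have many processed pseudogenes that can take their reads.

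Of 78 cell cycle and replication genes, 30 rose, 31 fell and 17 did not pass the test, and after the correction 18 rose and 29 fell. CDK1, the mitotic kinase, and NUSAP1, a spindle protein, rose by 0.46 [0.15] and 0.43, and NUSAP1 kept 0.42 after the correction. CCND3 and MYBL2 fell by 0.47 [-0.26] and 0.46 [-0.24]. Of 33 genes of the NRF2 antioxidant response, 11 rose, 14 fell and 8 did not pass the test, and after the correction 6 rose and 10 fell. FTL, the ferritin light chain, fell by 0.42 [-0.31], while TXNRD1, a thioredoxin reductase, and SOD2, the mitochondrial superoxide dismutase, rose by 0.39 [0.32] and 0.37 [0.24]. Among 27 metallothionein and zinc transport genes, 6 rose, 6 fell and 15 did not pass the test, and the median of 0.02 turned to -0.04 after the correction, when 5 rose and 3 fell. The transporters SLC30A9 and SLC39A10 rose by 0.50 [0.23] and 0.36 [0.12], SLC39A1 fell by 0.34 [-0.15], and SLC39A10 did not pass after the correction (adjusted p = 0.0533).

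Immediate early genes, which respond first to growth factor signals, fell in 20 of 35 cases and rose in 3, with a median of -0.22. After the correction 5 rose and 11 fell, and the median was -0.07. DUSP2, DUSP5 and JUNB fell by 0.52 [-0.31], 0.37 [-0.22] and 0.40 [-0.20]. DUSP2, a phosphatase that acts on MAP kinases, was read at 4.90 and 5.41 CPM with E2 and 6.68 and 8.04 CPM without. KLF9, a transcription factor that hormones induce, was read at 6.61 and 7.74 CPM with E2 and 5.44 and 5.21 CPM without, a rise of 0.43 ± 0.12 (SE, adjusted p = 0.00195) [0.36]. Without E2+(2S,6S)-HNK replicate 2 it was 0.31 and did not pass (adjusted p = 0.0682).

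Matrix genes moved both ways. Of 52 collagen and extracellular matrix genes, 10 rose, 23 fell and 19 did not pass the test, and after the correction 12 rose and 16 fell. COL11A1, a fibrillar collagen, rose by 0.38 [0.27], PLOD1, a lysyl hydroxylase, fell by 0.32 [-0.13], and HAS2, a hyaluronan synthase, rose by 0.39 [0.11] but did not pass after the correction (adjusted p = 0.491). Of 42 YAP and contractile genes, 11 rose, 22 fell and 9 did not pass the test, and after the correction 7 rose and 23 fell. TAGLN, CNN2 and MYL9 of the contractile apparatus fell by 0.42 [-0.23], 0.43 [-0.23] and 0.40 [-0.18], and the integrin gene ITGB1 rose by 0.41 [0.22] from 493 and 489 CPM to 640.5 and 665 CPM. Of 29 metalloproteinases and inhibitors, 5 rose, 13 fell and 11 did not pass the test, and the median of -0.24 was the lowest of the 20 lists described. After the correction 3 rose and 12 fell. MMP24 was read at 94.0 and 92.3 CPM with E2 and 132 and 133 CPM without, a fall of 0.51, and a log2 fold change of -0.29 after the correction. MMP15 fell by 0.38 [-0.17] and MMP11 by 0.54 [-0.31], the latter not past the test after the correction (adjusted p = 0.123), and the membrane protease gene ADAM9 rose by 0.46 [0.20]. In the circadian clock list of 23 genes, 6 rose, 8 fell and 9 did not pass the test, and after the correction 5 rose and 3 fell. CLOCK and NR1D2 rose by 0.42 [0.17] and 0.39 [0.14], and PER1 and TEF fell by 0.36 [-0.13] and 0.39 [-0.20].

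Of 16 synaptic and translation control genes, which include genes that the study named and others of the pathways it names, and which are not an independent list, 3 rose, 8 fell and 5 did not pass the test, and after the correction 1 rose and 8 fell. EEF2, the translation elongation factor, was read at 4399.6 and 4309.5 CPM with E2 and 5510.4 and 5769 CPM without, a fall of 0.37 ± 0.018 (SE, adjusted p = 8.26e-23), and the log2 fold change was -0.16 after the correction. EEF2K, the kinase of EEF2, fell by 0.15 [-0.09] and did not pass after it (adjusted p = 0.121). BDNF, a neurotrophin gene, was read at 29.9 and 27.9 CPM with E2 and 25.4 and 24.2 CPM without, a rise of 0.23 (adjusted p = 0.000841) and of 0.15 (adjusted p = 0.0364) after it. DLG4, which encodes the postsynaptic scaffold PSD-95, fell by 0.23 and was at -0.03 (adjusted p = 0.738) after it. Without (2S,6S)-HNK replicate 2 both EEF2K and DLG4 were at -0.10 and did not pass (adjusted p = 0.131 and 0.278). SYN1, a synaptic vesicle gene at 0.8 to 1.1 CPM, had a log2 fold change of -0.02 [0.19] (adjusted p = 0.973). SIN3A, a corepressor scaffold, was read at 83.8 and 82.7 CPM with E2 and 82.3 and 79.98 CPM without, with a log2 fold change of 0.04 (adjusted p = 0.442) that turned to -0.09 (adjusted p = 0.0468) after it. AKT1, MAPK3 and RPTOR of the AKT, ERK and mTOR pathways fell by 0.38, 0.41 and 0.35, and by 0.14, 0.18 and 0.14 after it.

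**Figure D4:**
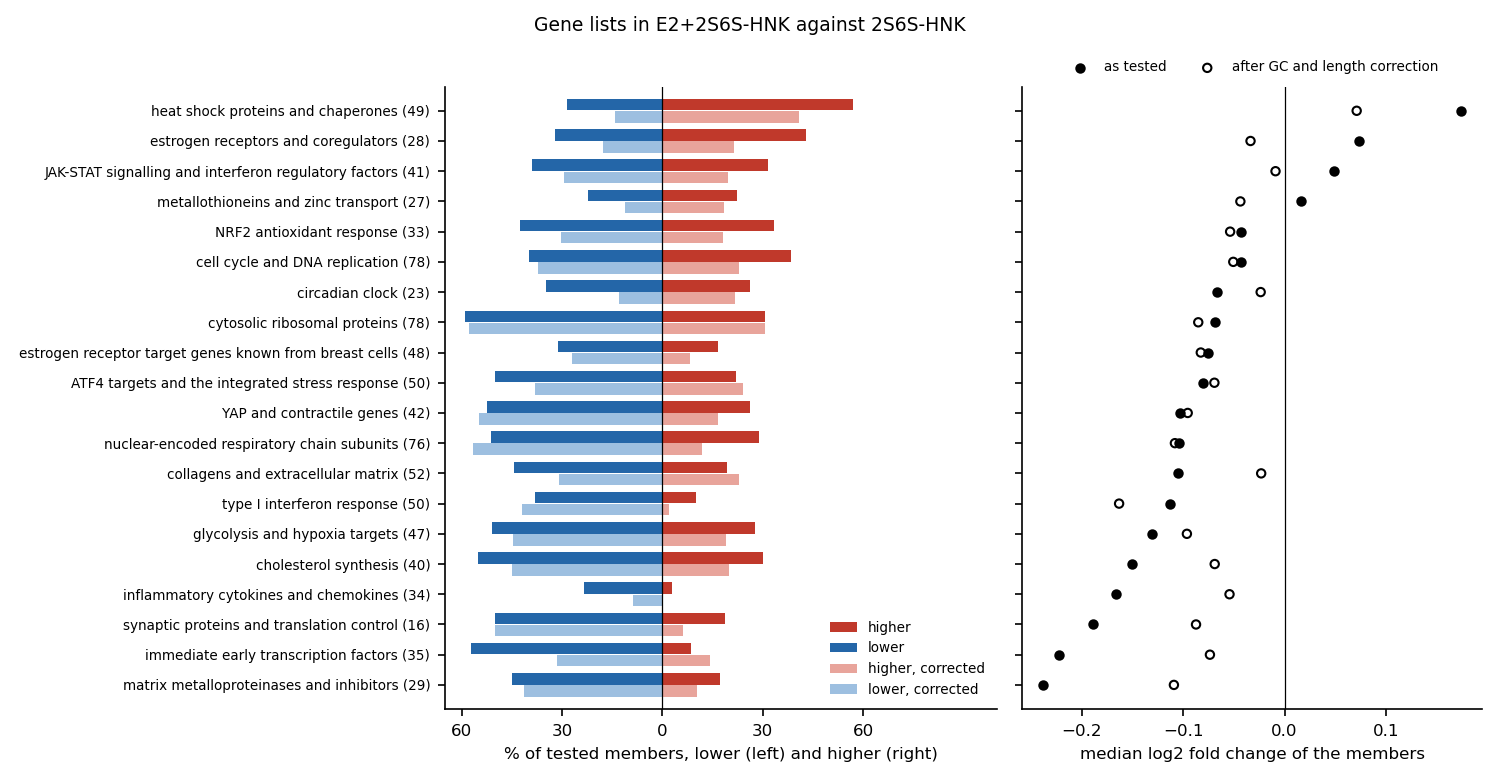
Left: share of the tested members (number in brackets) of each of 20 gene lists that fell (left of 0, blue) or rose (right of 0, red), before (dark) and after (pale) the correction for GC content and length. Right: median log2 fold change of the members before (filled) and after (open) the correction; the medians before it run from -0.24 for matrix metalloproteinases to 0.17 for heat shock proteins, and that of the interferon list moved from -0.11 to -0.16.

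The effect of E2 with (2S,6S)-HNK was then compared with its effect in the 3 other contexts. These 4 effects share no library. In vehicle, E2 changed 290 genes past the fold limit, with (2R,6R)-HNK 477, with ketamine 172 and with (2S,6S)-HNK 112. After the correction these counts were 132, 462, 106 and 73. The effect with (2S,6S)-HNK differed from that in vehicle in 10418 genes (65.1%) by the interaction term of the edgeR fit (adjusted p under 0.05), from that with (2R,6R)-HNK in 7558 (47.2%) and from that with ketamine in 10042 (62.7%). After the correction the counts were 6446, 6214 and 7183. Across the 16004 genes, which are not independent, the Spearman correlation of the effect with (2S,6S)-HNK was -0.573 with that in vehicle, -0.575 with that under ketamine and 0.0674 with that under (2R,6R)-HNK. After the correction these were -0.266, -0.387 and 0.137, and over genes of at least 5 CPM -0.848, -0.838 and 0.0559 before and -0.503, -0.630 and 0.149 after it. Of 7158 genes that changed with E2 both in vehicle and with (2S,6S)-HNK, 2.36% changed in the same direction, and of 2974 after the correction 20.3%. The effect of E2 rose with GC content in vehicle (Spearman 0.755) and with ketamine (0.593), and with (2R,6R)-HNK the value was 0.0539.

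Among genes of at least 5 CPM over the 8 libraries compared, the difference from vehicle was most positive for LINC01111, CHORDC1 and CCDC58 and most negative for PDGFB, CIB2 and ZNF469. CHORDC1, a cochaperone of HSP90, rose by 0.38 [0.10] with (2S,6S)-HNK and fell by 1.24 [-0.68] in vehicle, a difference of 1.62 ± 0.081 (SE, adjusted p = 3.72e-23) that was 0.79 after the correction, when the effect with (2S,6S)-HNK did not pass (adjusted p = 0.174). Its level was 60.5 ± 0.368 CPM (SD, n = 2) in vehicle, 25.7 ± 1.06 CPM with E2, 18.7 ± 0.930 CPM with (2S,6S)-HNK and 24.4 ± 1.18 CPM with both. Vehicle stood apart from the other 3 groups. PDGFB, a growth factor gene, fell by 0.40 [-0.18] with (2S,6S)-HNK and rose by 1.09 [0.69] in vehicle, a difference of -1.49 ± 0.12 (SE, adjusted p = 2.05e-15) and -0.87 after the correction, when its fall did not pass (adjusted p = 0.0745). Its fall was 0.27 without E2+(2S,6S)-HNK replicate 1 (adjusted p = 0.0162). PDGFB stood at 6.17 ± 0.634 CPM, 13.1 ± 1.23 CPM, 16.3 ± 0.516 CPM and 12.4 ± 1.63 CPM in the same 4 groups, again with vehicle apart. IFITM1 and MX1, which fell with (2S,6S)-HNK, had log2 fold changes of 0.51 [0.20] and 0.15 [0.12] in vehicle that did not pass the test, and the differences were -2.51 ± 0.40 (SE, adjusted p = 3.17e-07) [-2.02] and -1.22 ± 0.26 (SE, adjusted p = 5.14e-05) [-1.12]. Without (2S,6S)-HNK replicate 2, in which IFITM1 was highest, its difference was -1.40 (adjusted p = 6.36e-05), and without E2 replicate 1 that of MX1 was -0.77 (adjusted p = 0.0174). RPS24 rose by 0.55 [0.47] and P4HA1 by 0.56 [0.32] with (2S,6S)-HNK, and they fell by 0.88 [-0.72] and 0.97 [-0.51] in vehicle, with differences of 1.44 and 1.53 before and 1.19 and 0.82 after the correction. P4HA1 averaged 182 ± 1.73 CPM in vehicle and 181 ± 7.05 CPM with E2+(2S,6S)-HNK, and the means of the other 6 groups lay below both.

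Between the mirror-image metabolites, both at 400 nM with 0.1 nM E2 for 24 h, the differences among genes of at least 5 CPM over the 8 libraries compared were largest for IGFBP5, KCNAB2 and TNXB on the negative side and CYP1B1, IGFN1 and CPA4 on the positive side. IGFBP5, which binds insulin-like growth factors, had a log2 fold change of -0.09 [0.02] (adjusted p = 0.314) with (2S,6S)-HNK and of 2.34 [2.28] with (2R,6R)-HNK, a difference of -2.43 ± 0.11 (SE, adjusted p = 9.1e-24) [-2.26]. It was at 33.8 ± 0.650 CPM (SD, n = 2) with (2S,6S)-HNK, 31.7 ± 2.04 CPM with E2+(2S,6S)-HNK and 35.2 ± 0.198 CPM with E2+(2R,6R)-HNK, and at 7.01 ± 0.822 CPM with (2R,6R)-HNK alone. CYP1B1, a cytochrome P450 that hydroxylates estrogens, was at 3.71 ± 0.219 CPM, 4.35 ± 0.167 CPM and 3.21 ± 0.141 CPM in the first 3 of these groups and 9.86 ± 0.380 CPM in the last. CPA4, a carboxypeptidase, was at 70.8 ± 0.797 CPM, 65.2 ± 0.0536 CPM and 56.7 ± 2.55 CPM against 187 ± 5.14 CPM. Over all 8 groups, the 3 groups (2S,6S)-HNK, E2+(2S,6S)-HNK and E2+(2R,6R)-HNK stood apart from the other 5, among them (2R,6R)-HNK alone and vehicle. The means of the other 5 ran from 7.01 to 12.04 CPM for IGFBP5, from 6.38 to 11.3 CPM for CYP1B1 and from 181 to 286 CPM for CPA4. MX1 fell under both, by 1.07 [-1.01] and 0.97 [-1.09], and the difference of -0.09 [0.09] (95% interval -0.62 to 0.44, taken with 8 residual degrees of freedom) did not pass the test. KLF9 rose by 0.43 [0.36] and 0.50 [0.46], with a difference of -0.07 [-0.10] (-0.47 to 0.33) that did not pass. The value of 0.43 was 0.31 (adjusted p = 0.0682) without E2+(2S,6S)-HNK replicate 2. GOLGA8A rose under both, by 0.68 [0.71] and 0.45 [0.39], and the difference of 0.23 ± 0.066 (SE, adjusted p = 0.0026) [0.32] passed. IFITM1, at a lower level, differed by -2.30 ± 0.36 (SE, adjusted p = 4.13e-07) [-2.14]. Without (2S,6S)-HNK replicate 2 this difference was -1.19 (adjusted p = 0.000379). IFIT5 rose by 0.51 [0.25] with (2S,6S)-HNK and fell by 0.46 [-0.45] with (2R,6R)-HNK, a difference of 0.96 ± 0.12 (SE, adjusted p = 1.04e-09) [0.69].

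Against ketamine, the parent drug, the difference among genes at the same limit of 5 CPM was most negative for MT1X, DUSP2 and MT1E and most positive for SLC39A10, KLF9 and SMIM14. Below that limit, IFITM1 and MX1 differed by -2.46 [-1.98] and -1.86 [-1.91]. The difference of IFITM1 was -1.35 (adjusted p = 2.36e-05) without (2S,6S)-HNK replicate 2. The metallothionein gene MT1E, which encodes a zinc-binding protein, fell by 0.23 [-0.07] with (2S,6S)-HNK and rose by 1.28 [0.99] with ketamine, a difference of -1.51 ± 0.066 (SE, adjusted p = 1.44e-25) that was -1.06 after the correction, when its fall did not pass (adjusted p = 0.33). Its level was 52.1 ± 2.09 CPM (SD, n = 2) with ketamine, 127 ± 2.27 CPM with E2+ketamine, 21.6 ± 0.172 CPM with (2S,6S)-HNK and 18.4 ± 0.941 CPM with both. KLF9 rose by 0.43 [0.36] with (2S,6S)-HNK and fell by 1.01 [-0.83] with ketamine, a difference of 1.44 ± 0.17 (SE, adjusted p = 4.42e-10) [1.19]. That difference was 1.33 (adjusted p = 2e-08) without E2+(2S,6S)-HNK replicate 2, where the rise itself did not pass. GOLGA8A rose by 0.68 [0.71] and fell by 0.63 [-0.55], a difference of 1.32 ± 0.066 (SE, adjusted p = 3.62e-23) that was 1.26 after the correction.

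**Figure D5:**
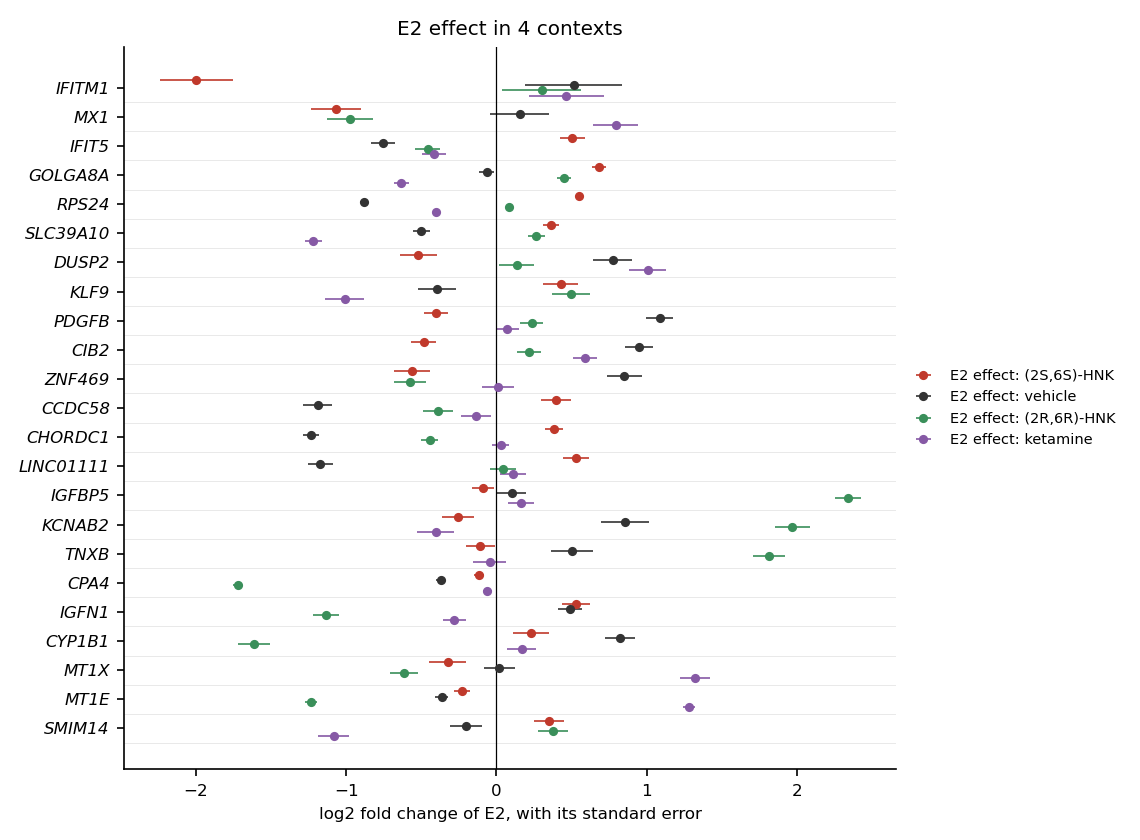
Log2 fold change of E2 (points) with its standard error (bars) in 4 contexts for 5 genes described above and the genes with the largest differences between contexts. The points for (2S,6S)-HNK (red) lie on the other side of 0 from those for vehicle (black) in PDGFB, CIB2, ZNF469, CCDC58, CHORDC1 and LINC01111, and those for (2R,6R)-HNK (green) reach 2.34 for IGFBP5 where red is at -0.09.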

How the data were processed

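RNA-seq was performed on total RNA of HMC3 cells, with amplified cDNA libraries sequenced as 100 bp paired reads. The authors aligned reads to hg19 and deposited raw counts per gene without normalization, and the submitters' processing notes name TopHat2 2.0.14, Bowtie2 2.2.6 and featureCounts 1.4.6. The study's methods name other versions of TopHat and Bowtie and the same version of featureCounts. Strandedness and the lane of each library are not given in the sources used here.

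Counts of all 16 libraries (55300614 to 81646165 each) were filtered (filterByExpr, 16004 of 25370 genes), TMM-normalized and tested with edgeR 4.0.16 (quasi-likelihood, 8 groups, 8 residual degrees of freedom, limma 3.58.1, R 4.3.3), with Benjamini-Hochberg adjustment within each comparison. Genes were called at an adjusted p under 0.05, with and without a log2 fold change of at least 1. Differences between E2 effects were interaction terms. CPM are TMM-scaled, except for markers and genes not tested. The distance is Euclidean over log2 CPM (prior count 2). GC content and exon length came from GENCODE models on GRCh37 (96.0% of genes tested), and the correction is a loess offset (span 0.5) per library. Older symbols were matched for 1498 genes. Statistics scripts were tested on simulated data.

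The members and lists were chosen with earlier results of these data known. The genes named are the 12 largest rises and 12 largest falls of at least 5 CPM (unnamed open reading frames, LOC and small RNA entries left out) with groups that do not overlap (72.3% of genes tested do not), up to 4 genes per list of at least 1 CPM, receptors and genes the study names, and the 3 largest differences each way per context. Further list members were picked after their values were seen. Alternatives were other normalizations, filters and tools (DESeq2 1.42.0), the replicate block, the correction, halved counts (low counts held an excess of even values) and each library left out. Some named genes and 1 list are not reported here.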

Additional observations from a re-analysis of the deposited data

Results flagged for a closer look

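The tests of the difference between contexts set apart the following results. The E2 effect with (2S,6S)-HNK differed from that in vehicle in 10418 genes, from that with (2R,6R)-HNK in 7558 and from that with ketamine in 10042. Differences on the log2 scale from vehicle were -1.49 for PDGFB, -1.43 for CIB2, -1.41 for ZNF469, 1.59 for CCDC58, 1.62 for CHORDC1 and 1.70 for LINC01111, and after the GC and length correction they were -0.87, -0.86, -0.68, 0.72, 0.79 and 0.77. Those of IFITM1 and MX1 from vehicle were -2.51 and -1.22, and -2.02 and -1.12 after it. Without (2S,6S)-HNK replicate 2 that of IFITM1 was -1.40, and without E2 replicate 1 that of MX1 was -0.77.

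Differences from the effect with (2R,6R)-HNK were -2.43 for IGFBP5, -2.23 for KCNAB2, -1.92 for TNXB, 1.60 for CPA4, 1.67 for IGFN1 and 1.84 for CYP1B1. Differences from the effect with ketamine were -1.65 for MT1X, -1.53 for DUSP2, -1.51 for MT1E, 1.43 for SMIM14, 1.44 for KLF9 and 1.58 for SLC39A10. Each of these passed the test after the correction too, with values of -2.26, -1.84, -1.53, 1.67, 1.98 and 1.78 for the former 6 and -1.35, -0.94, -1.06, 0.88, 1.19 and 1.02 for the latter 6.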

How the results depend on the processing

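The count of 112 genes past the fold limit moved with the filter on low counts, halved counts, the tool, the fold limit itself and the correction for GC content and length together. It was 31 with at least 10 counts in every library, 40 with DESeq2, 73 with the GC and length correction, 73 with the replicate block and that correction together, 73 with halved counts, 8210 without the fold limit and 2 (IFITM1 and MTRNR2L9) when tested against a log2 fold change of 0.5. Leaving out each library gave 112 to 136. The replicate block gave 109, and no call of a named gene changed with it. The replicate differences of the 2 groups correlated at -0.147 over the 10701 genes above a mean log2 CPM of 2, so the pairing was also crossed, after seeing the data, which gave 107. The labels do not say that a number marks a shared culture or batch. The difference from vehicle was called in 6446 genes with the correction and 6426 with the block and the correction. Leaving out each library gave 9989 to 10225 genes against vehicle, 6869 to 7364 against (2R,6R)-HNK and 9565 to 9767 against ketamine. The Spearman correlation with the effect in vehicle was -0.266 after the correction and -0.848 (-0.503 after it) over genes of at least 5 CPM, and that with the effect under ketamine -0.387 and -0.838 (-0.630). Reversed log2 fold changes, all of genes near 0, were -0.0860 for SIN3A, 0.191 for SYN1, 0.0196 for IGFBP5 and 0.143 for TNXB after the correction, and -0.0860, 0.188, 0.0187 and 0.144 with the block as well. SYN1 was also 0.0129 with upper-quartile normalization and 0.00116 with the groups compared only, and ran from -0.23 to 0.19 over the libraries left out. Of 127 named genes, 101 kept direction and call after the correction and 22 lost the call, and leaving out a library ended calls of a few genes of low level or small change: DDX60 (0.42), IRF5 (-0.55), KCNAB2 (-0.21) and MT1X (-0.27) without (2S,6S)-HNK replicate 1, IRF5 (-0.64), NUPR1 (-0.27), EEF2K (-0.10), DLG4 (-0.10), KCNAB2 (-0.30) and SMIM14 (0.24) without its replicate 2, IRF5 (-0.68), NUPR1 (-0.51), CA9 (-0.26), KCNAB2 (-0.26) and MT1X (-0.32) without E2+(2S,6S)-HNK replicate 1, and DDX60 (0.51), IRF5 (-0.53), KLF9 (0.31), KCNAB2 (-0.25) and MT1X (-0.33) without its replicate 2. GPER1 passed without (2S,6S)-HNK replicate 2 (-0.88). Calls also ended for DDX60 (0.56) and KCNAB2 (-0.27) with DESeq2, for IRF5 (-0.58), CPA4 (-0.10) and MT1X (-0.31) with the groups compared only, and for KCNAB2 (-0.23) with upper-quartile normalization. The cause was not tested.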
